A study of Drosophila melanogaster with 14 samples.

Results

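The data described here are the 4 libraries of PDF+ LNvs that expressed *Atx2* RNAi, of 14 libraries in all, and they were chosen by their labels: 2 were collected at ZT0 and 2 at ZT12. The comparison asks which genes still differ in RNA level between lights-on and lights-off within this one genotype. LNvs, the ventral lateral neurons of the *Drosophila* brain, were marked with membrane GFP under the *Pdf* promoter (Pdf>mGFP), sorted by flow cytometry from dissected brains, and their amplified RNA was sequenced. The RNAi transgene (KK108843) was driven by the same promoter, which is active in both the large and the small LNvs, and these were not separated. All flies of all groups were female, had the *w1118* background and were kept under the condition labelled HC25. Set beside the knockdown were 4 wild-type (WT) libraries with the same GFP label, 1 each labelled ZT24, ZT02, ZT12 and ZT14, in which ZT24 and ZT02 were taken as the early pair and ZT12 and ZT14 as the late pair. The *tyf* mutant *tyf(e)* gave 2 libraries at ZT04 and 2 at ZT16 and was used only for values side by side, and 2 further WT libraries, labelled ZT04 and ZT16, entered only the fit of all 14 libraries. The labels do not say whether 2 libraries of a group came from separate collections of flies, so the p-values measure the spread between these libraries, which may be technical. In the main fit this spread was pooled over the 4 RNAi libraries and the 4 libraries of the early and late WT pairs. The 2 libraries of a WT pair were collected at different times, so the pooled spread also takes in any change between those times.

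LNvs are the pacemaker cells that release the neuropeptide PDF and keep the fly's daily rhythm of locomotor activity in constant darkness. Inside them, the transcription factors CLK and CYC switch on *per*, *tim*, *vri* and *Pdp1* around dusk. PER and TIM then shut CLK and CYC off, while VRI represses and PDP1 activates *Clk*, which is why *Clk* RNA is known to be high around dawn and *vri* RNA around dusk. ATX2 is an RNA-binding protein that works with TYF to activate the translation of *per*, and it also acts with other partners in RNA stability and silencing.

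*Atx2* (FBgn0041188, chromosome 3R from 15408423 to 15417277, as annotated in Ensembl 115) was the targeted gene and was low in all 4 libraries. Its normalized counts, which are counts scaled to a common library size, were 271 and 369 at ZT0 and 170.2 and 277 at ZT12, and none of the 4 WT libraries lay under 1171. The knockdown level itself did not pass the test between the times, with a log2 fold change of 0.51 ± 0.29 (SE, adjusted p = 0.47), where SE is the standard error of the fit. *Pdf*, the marker of the sorted cells, was at 262760 to 316570 TPM (transcripts scaled per length and to a common total) in the 4 libraries and had a log2 fold change of -0.08 ± 0.22 (SE, adjusted p = 0.94). Sequencing depth differed with time: 10674958 and 11586874 estimated counts at ZT0 and 5216112 and 5771153 at ZT12, a ratio of 2.03. When the ZT0 libraries were thinned at random to the ZT12 depth, 340 genes were called and 332 of them were among the 354 described next.

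In *Atx2* RNAi LNvs, 354 of the 8643 tested genes (4.1%) differed between ZT0 and ZT12 at an adjusted p under 0.05, of which 212 (2.45%) were higher at ZT0 and 142 (1.64%) were higher at ZT12. A difference of more than 4-fold was found for 108 of the 354 genes, 56 higher at ZT0 and 52 higher at ZT12, and the median absolute log2 fold change of the 354 was 1.53. In all 354, both libraries of one time lay above both of the other, which was also true of 49.6% of all tested genes. Scaling by library size alone moved the median log2 fold change of all genes from -0.01 to -0.12 and turned the split to 118 higher at ZT0 and 143 higher at ZT12. The number of calls also rested on each library: it was 168 without the first and 122 without the second ZT0 library, and 112 without the first and 80 without the second ZT12 library, with 1 library left in that group. No gene of the 354 changed direction in any of these fits, and of the 69 called genes that are named here, 22 kept an adjusted p under 0.05 with each of the 4 libraries left out in turn.

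Of the 7 genes of the transcriptional clock loop, *Clk* was higher at ZT0 and *vri* was higher at ZT12, and the other 5 did not pass the test. The count of 2 of 7 stands against 4.1% of all tested genes and is a description, since the list was chosen with earlier results of these data known. *Clk* (FBgn0023076, chromosome 3L from 7763233 to 7775603) had 1144 and 1087 normalized counts at ZT0 and 267 and 298 at ZT12 in *Atx2* RNAi. That was a 3.94-fold difference, with a log2 fold change of 1.98 ± 0.36 (SE, adjusted p = 0.010). The call was lost without the first ZT12 library (adjusted p = 0.097) or the second (0.096). In WT, *Clk* had 2163 and 2083 normalized counts at ZT24 and ZT02 and 83.2 and 225 at ZT12 and ZT14, and the log2 fold change was 3.79 ± 0.38 (SE, adjusted p = 0.00043). The RNAi libraries lay between the 2 WT pairs at both times, but the difference between the genotypes in the size of the time effect, -1.82 ± 0.49 (SE, adjusted p = 0.16), did not pass the test.

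*vri* (FBgn0016076, chromosome 2L from 5288944 to 5311223) had 2189 and 1133 normalized counts at ZT0 and 4988 and 5563 at ZT12 in *Atx2* RNAi, 3.18-fold more at ZT12, with a log2 fold change of -1.67 ± 0.33 (SE, adjusted p = 0.019). In WT it had only 62.2 and 117 early and 6249 and 7539 late, a log2 fold change of -6.25 ± 0.42 (SE, adjusted p = 3.0e-05). The late libraries of both genotypes lay between 4988 and 7539, whereas the early RNAi libraries were far above the early WT libraries, and the interaction of genotype and time was 4.58 ± 0.49 (SE, adjusted p = 0.0021). It passed the threshold in each of the 17 alternative fits. The difference within *Atx2* RNAi was less firm, with an adjusted p of 0.15 without the second ZT0 library, 0.086 without the first ZT12 library and 0.14 without the second.

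*Pdp1*, the activator of *Clk* that oscillates with *vri*, had 35451 and 25253 normalized counts at ZT0 and 29952 and 31260.5 at ZT12 in *Atx2* RNAi. The ZT12 libraries lay inside the range of the ZT0 libraries, and the log2 fold change was -0.01 ± 0.25 (SE, adjusted p = 0.99). In WT it had 9724 and 8490.5 early and 38608 and 59524 late, a log2 fold change of -2.43 ± 0.26 (SE, adjusted p = 0.00059), and the interaction was 2.42 ± 0.36 (SE, adjusted p = 0.016). The interaction passed the threshold in 14 of 17 alternative fits, and lost it at most at an adjusted p of 0.087. *tim*, whose protein is degraded by light, had 5390.2 and 4199 normalized counts at ZT0 and 6445 and 6801 at ZT12. Its log2 fold change in *Atx2* RNAi was -0.47 ± 0.41 (SE, adjusted p = 0.70), against -2.63 ± 0.44 (SE, adjusted p = 0.0092) in WT, and the interaction was 2.16 ± 0.59 (SE, adjusted p = 0.16) and was not called. *per* had 391 and 547 normalized counts at ZT0 and 678 and 699 at ZT12, with log2 fold change -0.55 ± 0.30 (SE, adjusted p = 0.45). The values for *cyc* and *cwo* were -0.23 and -0.26 (adjusted p = 0.77 and 0.74). In WT, the early and late libraries of *per*, *cyc* and *cwo* overlapped.

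**Figure D1:**
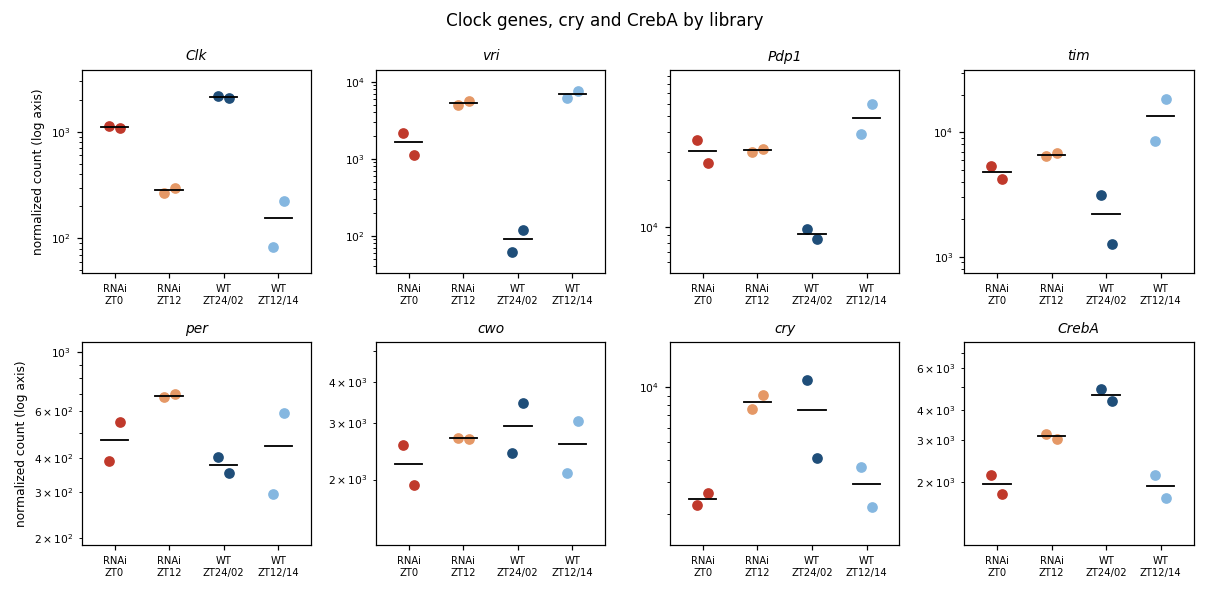
Normalized counts (log axis) of 6 clock genes, *cry* and *CrebA* in each library of *Atx2* RNAi (red and orange) and wild type (WT, dark and light blue). Points are libraries and bars are the means of 2. *Clk* and *vri* differed between the times in both genotypes, *Pdp1* overlapped between the times in *Atx2* RNAi, and both ZT12 libraries of *cry* and of *CrebA* lay above both ZT0 libraries in *Atx2* RNAi.

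The transcripts behind these genes are estimates that kallisto splits among overlapping forms from short reads, and they are given without a test. For *Clk*, the form Clk-RH held 92.6% to 94.8% of the gene's estimated counts at ZT0 and 85.4% to 91.5% at ZT12. For *cwo*, whose summed level was close at both times, the share of cwo-RB was the larger one at ZT0. cwo-RB held 47.4% and 44.2% at ZT0 but 14.2% and 10.6% at ZT12, and cwo-RC, which held most of the rest, was the largest form at both times. In WT, cwo-RB held 60.7% and 75.3% early and 26.0% and 28.6% late, so that the early share was the larger one in each genotype. *Pdp1* was mainly Pdp1-RP at both times, at 78.3% and 72.9% at ZT0 and 65.6% and 57.0% at ZT12. The share of Pdp1-RK was 4.6% and 5.3% at ZT0 and 12.6% and 14.6% at ZT12. For *vri*, vri-RA was the largest form in all 4 RNAi libraries, with 1152 and 1107 estimated counts at ZT0 and 2488 and 2458 at ZT12 before any scaling for depth, and it had less than 1 estimated count in both early WT libraries.

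Of the 17 kinases, phosphatases and turnover factors of clock proteins, 0 were called by edgeR in *Atx2* RNAi, with 3 at an unadjusted p under 0.05 (15.2% of all genes). Of the 5 light input genes tested, *cry* was higher at ZT12 and *norpA* at ZT0, against 4.1% of all genes called in either direction. *cry* (FBgn0025680, chromosome 3R from 19212154 to 19215442), the blue-light receptor of the clock, had 2238 and 2619 normalized counts at ZT0 and 7610.1 and 9063 at ZT12. Its log2 fold change in *Atx2* RNAi was -1.78 ± 0.40 (SE, adjusted p = 0.032). In WT, *cry* was highest in the ZT24 library (10944) and lowest in the ZT14 library (2184), with a log2 fold change of 1.36 ± 0.39 (SE, adjusted p = 0.15), and the interaction was -3.14 ± 0.56 (SE, adjusted p = 0.036). *norpA*, the phospholipase C of phototransduction, had 1270.5 and 1409 normalized counts at ZT0 and 706 and 756 at ZT12, a log2 fold change of 0.87 ± 0.20 (SE, adjusted p = 0.036). Neither call held with any 1 of the 4 RNAi libraries left out (adjusted p from 0.096 to 0.21 for *cry* and from 0.12 to 0.29 for *norpA*).

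Among 13 genes of PDF signalling and peptide processing, *sNPF* and *Fur2* were higher at ZT0 and *Pdfr* and *svr* were higher at ZT12, against 2.45% of all genes higher at ZT0 and 1.64% higher at ZT12. *sNPF* (FBgn0032840, chromosome 2L from 20027915 to 20056373), which encodes short neuropeptide F, a second peptide of the small LNvs, had 7394 and 3645 normalized counts at ZT0 and 369.8 and 527 at ZT12. This was a 12.3-fold difference, with log2 fold change 3.62 ± 0.52 (SE, adjusted p = 0.0035), or 3.03 without the first ZT0 library. In WT it had 8150.4 and 8079 early and 327 and 1078 late, a log2 fold change of 3.53 ± 0.51 (SE, adjusted p = 0.0043). The 2 time effects differed by 0.09 ± 0.66 (SE, adjusted p = 0.98) on the log2 scale. *Pdfr* (FBgn0260753, chromosome X from 2552206 to 2578640), the PDF receptor, had 2646 and 2677 normalized counts at ZT0 and 18287 and 20172 at ZT12, 7.22-fold more at ZT12, with a log2 fold change of -2.85 ± 0.41 (SE, adjusted p = 0.0037). The WT libraries had 1224 and 437 early and 6783 and 4223 late, a log2 fold change of -2.73 ± 0.41 (SE, adjusted p = 0.0056), and the time effects differed by -0.12 ± 0.54 (SE, adjusted p = 0.97). For both genes the groups did not overlap in either genotype, which in *Atx2* RNAi was true of every called gene. The RNAi call held with each RNAi library left out in turn, though *sNPF* had an adjusted p of 0.079 in the fit of all 14 libraries. In that fit, where the WT libraries were pooled as day and night, the WT difference of *sNPF* was 1.43 on the log2 scale (adjusted p = 0.55). The further WT libraries in it ran the other way for *sNPF*, with 1145 normalized counts at ZT04 and 6051 at ZT16.

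*Fur2*, a furin protease that cleaves peptide precursors, had 558 and 582 normalized counts at ZT0 and 236 and 230.1 at ZT12 (log2 fold change 1.29 ± 0.23 SE, adjusted p = 0.0090), and WT had 587 and 567 early and 183 and 260.5 late. *svr*, a carboxypeptidase that trims peptides, had 5904 and 6648 normalized counts at ZT0 and 17388 and 14921 at ZT12 (log2 fold change -1.36 ± 0.30 SE, adjusted p = 0.030). The *svr* call was lost whichever RNAi library was left out (adjusted p from 0.13 to 0.22), and that of *Fur2* was kept without the first ZT0 library only (adjusted p from 0.046 to 0.11). *Dh31*, a diuretic hormone peptide that promotes waking, behaved unlike these. It had 76.5 and 60.9 normalized counts at ZT0 and 2157 and 1487 at ZT12 in *Atx2* RNAi, 26.5-fold more at ZT12, with a log2 fold change of -4.73 ± 0.37 (SE, adjusted p = 0.00022). All 4 WT libraries were higher than all RNAi libraries, at 8178 and 10097 early and 11101 and 5732 late, with a log2 fold change of 0.12 ± 0.31 (SE, adjusted p = 0.96). The interaction of genotype and time for *Dh31* was -4.85 ± 0.47 (SE, adjusted p = 0.0010). Its receptor gene *Dh31-R*, which was picked once its values had been seen, was higher late in both genotypes, with 361 and 373 normalized counts at ZT0 and 1792 and 1871 at ZT12 in *Atx2* RNAi and 332 and 551 early and 2151 and 2052 late in WT. The log2 fold change of *Dh31-R* in *Atx2* RNAi was -2.32 ± 0.25 (SE, adjusted p = 0.00085), and it held with each RNAi library left out, as did that of *Dh31*. Dh31 is also made in other neurons of the brain: summed over 8 marker genes of other clock or peptidergic neurons, of which *Dh31* is one, the level was 128.3 to 199.9 TPM at ZT0 and 435 to 573 TPM at ZT12, and without *Dh31* most of the sum was *NPF*, at 182 and 111 TPM at ZT0 and 259 and 186 TPM at ZT12. In the WT libraries the sum over the 8 markers was 2516 and 3184 TPM early and 3771 and 2118 TPM late. *NPF* was there at 950 and 1404 TPM early and 1552 and 906 TPM late, so the genotypes also differed in other markers of this group. Whether another cell type had a part in the *Dh31* differences between times or between genotypes was not tested.

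LNv excitability and the shape of the dorsal arbor are known to change through the day. Of 29 channel genes tested, *eag* was higher at ZT0 and *Irk1* was higher at ZT12, where 4.1% of all genes were called in either direction. *eag*, a voltage-gated potassium channel, had 1180.0 and 1271 normalized counts at ZT0 and 406 and 443 at ZT12, with log2 fold change 1.53 ± 0.20 (SE, adjusted p = 0.0021), and its call held with each RNAi library left out. In WT all 4 libraries of *eag* lay between 595 and 820.5, and the interaction (adjusted p = 0.088) was not called. *Irk1*, an inwardly rectifying potassium channel, had 560.0 and 415 normalized counts at ZT0 and 1425 and 1580.5 at ZT12 (log2 fold change -1.62 ± 0.25 SE, adjusted p = 0.0055), and 154 and 211 and 1260.3 and 1732 in WT (log2 fold change -3.03 ± 0.27 SE, adjusted p = 0.00019). Without the second ZT0 library its adjusted p was 0.071, and without the second ZT12 library 0.059.

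Among 14 genes of arbor remodelling, *Pura* and *Mmp2* were higher at ZT12, against 1.64% of all genes. *Pura* (FBgn0035802, chromosome 3L from 7593091 to 7639573) encodes an activator of RHO1 that retracts the axonal arbor of the small LNvs. It had 51.0 and 43.6 normalized counts at ZT0 and 302 and 309.8 at ZT12 in *Atx2* RNAi, 6.47-fold more, with log2 fold change -2.70 ± 0.33 (SE, adjusted p = 0.0016). WT had 40.2 and 34.7 early and 929.8 and 1861 late, a log2 fold change of -5.22 ± 0.36 (SE, adjusted p = 3.4e-05). The early libraries of the 2 genotypes were close and the late ones were not, and the interaction was 2.52 ± 0.46 (SE, adjusted p = 0.040), which was lost in 9 of 17 alternative fits. *Mmp2*, a matrix metalloproteinase, had 5426 and 5121 normalized counts at ZT0 and 8856 and 11277 at ZT12 (log2 fold change -0.93 ± 0.20 SE, adjusted p = 0.027), a call that was lost whichever RNAi library was left out (adjusted p from 0.098 to 0.35).

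Of 23 genes of synaptic release and transmitter synthesis tested, *cpx* was higher at ZT0 and *Rim* and *Tdc2* were higher at ZT12, against 2.45% of all genes higher at ZT0 and 1.64% higher at ZT12. *cpx* encodes complexin, the clamp of the fusion machinery, and had 9509 and 8821 normalized counts at ZT0 and 3679 and 3897 at ZT12 (log2 fold change 1.27 ± 0.19 SE, adjusted p = 0.0048). *Rim*, an active zone scaffold, had 2491 and 2801 at ZT0 and 5239 and 6669.6 at ZT12 (log2 fold change -1.17 ± 0.24 SE, adjusted p = 0.020). *Tdc2*, the neuronal tyrosine decarboxylase, had 756 and 1020.0 at ZT0 and 5086 and 4242 at ZT12 (log2 fold change -2.39 ± 0.50 SE, adjusted p = 0.022). The groups of all 3 genes did not overlap, which was true of all 354 called genes and of 49.6% of all tested genes. The call of *cpx* was lost without the first or the second ZT12 library (adjusted p = 0.069 and 0.064), and those of *Rim* and *Tdc2* without any 1 RNAi library (adjusted p from 0.074 to 0.24 and from 0.084 to 0.15). *Tdc2* marks tyraminergic and octopaminergic neurons and made up most of the sum over 9 markers of other neuron classes, which was 69.0 to 158 TPM at ZT0 and 394 to 400 TPM at ZT12. Of the other defining markers, *VGlut* was at 0.165 to 1.41 TPM, *ple* at 0.969 to 5.75 TPM and *Trhn* at 0 to 0.194 TPM in the RNAi libraries, and *Gad1* was at 50.5 TPM in the second ZT0 library and at most 1.19 TPM in the other 3. The cholinergic marker *ChAT* was at 3.14 and 11.6 TPM at ZT0 and at 1.43 and 4.32 TPM at ZT12, and *VAChT* was at most 5.51 TPM, in the second ZT0 library, and neither was called (adjusted p = 0.23 and 0.59). *Tbh*, the gene of the enzyme that makes octopamine, is not among the 9 markers and ran opposite to *Tdc2*. It was at 563 and 572 TPM at ZT0 and at 228 and 197 TPM at ZT12. The part of other neurons in these differences was not tested.

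In WT LNvs, 140 of the 8643 genes (1.62%) passed the same threshold between the early and the late pair, 85 higher early and 55 higher late. Both lists held 66 genes. Of these, 62 had the same direction in both genotypes, 37 higher early and 25 higher late, which was 17.5% of the *Atx2* RNAi list and 44.3% of the WT list. The remaining 4 had opposite directions. In the WT data, 251 of the 354 genes called in *Atx2* RNAi (70.9%) had the same sign, against 52.3% of all tested genes. By direction, 172 of the 212 genes higher at ZT0 and 79 of the 142 genes higher at ZT12 had the same sign in WT, and the difference between these shares was not tested. The median absolute log2 fold change of the 354 genes was 1.53 in *Atx2* RNAi and 0.615 in WT. That of the 140 genes called in WT was 1.98 in WT and 1.09 in *Atx2* RNAi. Each list was selected for large values in its own genotype, so these medians do not compare the genotypes. Across all 8643 genes the Pearson r between the time effects was 0.125, with genes of one library sharing its depth and composition.

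The WT libraries of a pair were collected at different times, unlike those of *Atx2* RNAi, so the interaction also takes in that difference in sampling. The interaction of genotype and time was called for 64 genes (0.74%), 50 of which were among the 354 genes called within *Atx2* RNAi. For 41 of those 50 the WT difference was not called. Conversely, 74 of the 140 genes called in WT did not pass the test in *Atx2* RNAi, and for 13 of these, among them *Pdp1* and *CrebA*, the interaction was called. For the rest of the 74 a difference between the genotypes was not shown. These counts also rested on single libraries: 9 to 37 interactions were called with 1 RNAi library left out and 31 to 190 with 1 WT library left out. Of the 24 genes named here for which the interaction was called, *vri*, *Dh31*, *MFS3*, *CG34325*, *meng* and *Nplp1* kept it in every alternative fit.

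**Figure D2:**
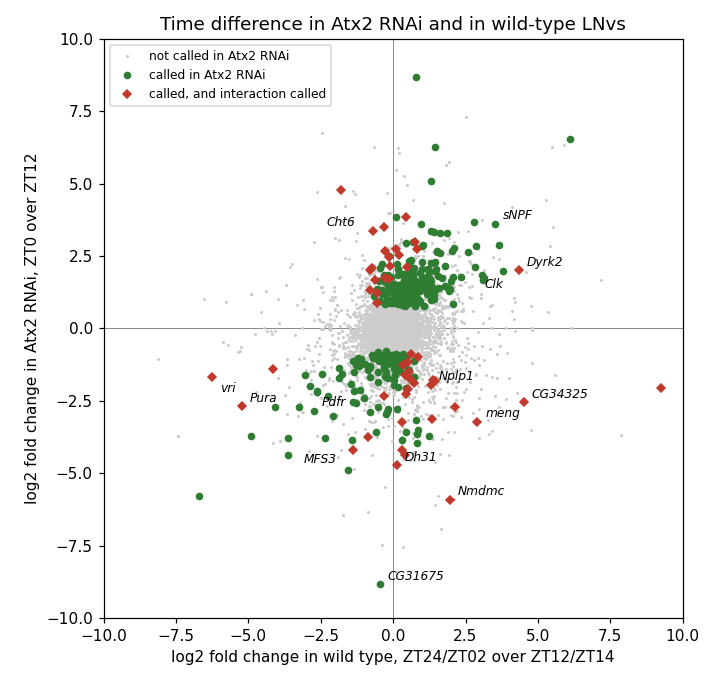
Log2 fold change between the times in *Atx2* RNAi (vertical axis, ZT0 over ZT12) against wild type (horizontal axis, ZT24 and ZT02 over ZT12 and ZT14) for 8643 genes. Green points were called in *Atx2* RNAi, red diamonds were also called for the interaction. *sNPF*, *Clk* and *Pdfr* lie in the quadrants of equal direction, *meng*, *Nplp1* and *CG34325* in the opposite quadrant, and *Dh31* close to 0 in wild type.

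Genes of second messenger and amine signalling stood among the 62 genes with the same direction in both genotypes. They were picked once their values had been seen, and no test was made of the group. *Pde11*, a phosphodiesterase of cyclic nucleotides, had 1066 and 998 normalized counts at ZT0 and 175 and 126 at ZT12 (log2 fold change 2.78 ± 0.30 SE, adjusted p = 0.00085), and 724 and 415 early and 115 and 149 late in WT. *Ac13E*, an adenylate cyclase, had 8467 and 7314 at ZT0 and 3195 and 2990.3 at ZT12 (log2 fold change 1.35 ± 0.31 SE, adjusted p = 0.037). *Pde11* and *Ac13E* were thus both higher at ZT0, but no count was made over the other cyclases and phosphodiesterases. *Ac13E* lost its call whichever RNAi library was left out, with log2 fold changes from 1.25 to 1.47. *Oamb*, an octopamine receptor, had 1122 and 1136 normalized counts at ZT0 and 324 and 378 at ZT12 (log2 fold change 1.68 ± 0.21 SE, adjusted p = 0.0018). *mAChR-B*, a muscarinic receptor, had 722 and 616 at ZT0 and 89.5 and 125 at ZT12 (log2 fold change 2.63 ± 0.46 SE, adjusted p = 0.0094). *Tbh*, the enzyme that makes octopamine, had 12529 and 11320.0 at ZT0 and 4941 and 3657 at ZT12 (log2 fold change 1.47 ± 0.26 SE, adjusted p = 0.0095). The call of *mAChR-B* was lost without either ZT12 library (adjusted p = 0.088 and 0.070) and that of *Tbh* without the second (0.15). The calls of *Pde11* and *Oamb* held with each RNAi library left out. *Rgk1*, a small GTPase known from sleep and memory, had 259.9 and 292 at ZT0 and 117 and 129 at ZT12 (log2 fold change 1.16 ± 0.23 SE, adjusted p = 0.017, adjusted p from 0.058 to 0.15 with 1 library left out).

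The transcription factor genes *br* and *chinmo* and the kinase gene *Dyrk2*, picked in the same way, were also higher early in both genotypes. *br* had 671 and 628 normalized counts at ZT0 and 151 and 163 at ZT12 (log2 fold change 2.05 ± 0.28 SE, adjusted p = 0.0029), with 551 and 306 and 151 and 155 in WT. *chinmo* had 2483 and 3294 at ZT0 and 402 and 386 at ZT12 (log2 fold change 2.87 ± 0.60 SE, adjusted p = 0.022), and its WT libraries were uneven early, at 15356 and 2645, and near equal late, at 738 and 685. *Dyrk2* had 1859 and 1616 at ZT0 and 315 and 547 at ZT12 (log2 fold change 2.01 ± 0.32 SE, adjusted p = 0.0056), with 4766 and 8285 and 323 and 311 in WT (log2 fold change 4.36 ± 0.35 SE, adjusted p = 8.1e-05). The late libraries of *Dyrk2* were alike in level, the early RNAi libraries were lower than the early WT libraries, and the interaction was -2.36 ± 0.44 (SE, adjusted p = 0.040). *br* kept its call with each RNAi library left out, *Dyrk2* lost it without the first ZT12 library (adjusted p = 0.066), and *chinmo* was kept without the first ZT0 library only (adjusted p from 0.043 to 0.19).

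Genes called in opposite directions in the 2 genotypes were *meng*, *CG34325*, *Nplp1* and *pre-mod(mdg4)-AA*, and the interaction was called for each. *meng* (FBgn0031855, chromosome 2L from 6742502 to 6756133), a kinase gene linked to memory, had 339.6 and 327 normalized counts at ZT0 and 2980.3 and 3269.7 at ZT12 in *Atx2* RNAi. The WT libraries had 2857 and 7391 early and 944 and 415 late, so the ZT0 libraries of *Atx2* RNAi lay below every WT library. Its log2 fold change was -3.23 ± 0.46 (SE, adjusted p = 0.0035) in *Atx2* RNAi and 2.91 ± 0.45 (SE, adjusted p = 0.0066) in WT. *Nplp1* (FBgn0035092), a neuropeptide precursor gene, had 1433 and 1319.8 normalized counts at ZT0 and 5601 and 4968 at ZT12 (log2 fold change -1.94 ± 0.21 SE, adjusted p = 0.00085). In WT, *Nplp1* had 1492 and 1449 early and 669.8 and 527 late (log2 fold change 1.30 ± 0.21 SE, adjusted p = 0.0076). At the early times the 4 libraries of both genotypes had near equal levels, and at the late times the RNAi libraries were the higher ones. *CG34325* had 9.87 and 14.7 normalized counts at ZT0 and 73.4 and 74.6 at ZT12, against 413 and 779.7 early and 36.5 and 14.5 late in WT, and its log2 fold changes were -2.56 ± 0.48 (SE, adjusted p = 0.013) and 4.51 ± 0.45 (SE, adjusted p = 0.00043). The interactions of these 3 genes were -6.14, -3.24 and -7.07 on the log2 scale (adjusted p = 0.0020, 0.00093 and 0.00093) and held in all 17 alternative fits. Within *Atx2* RNAi, *CG34325* lost its call whichever RNAi library was left out (adjusted p from 0.066 to 0.099). *pre-mod(mdg4)-AA* had 41.1 and 41.0 normalized counts at ZT0 and 134 and 209 at ZT12 and no count in the late WT libraries. It is annotated as a precursor for trans-splicing to *mod(mdg4)*, whose transcripts share sequence with it, so its values are uncertain, and its call in *Atx2* RNAi was lost in the fit of all 14 libraries (adjusted p = 0.77) and without any RNAi library but the first ZT12 one (adjusted p from 0.050 to 0.24).

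The 12 genes with the largest fold changes toward ZT0, among called genes with a mean of at least 50 normalized counts, were *CG13931*, *DIP-iota*, *Rcd2*, *Fili*, *SoxN*, *sdk*, *CG6983*, *sNPF*, *Ret*, *Cht6*, *CG4629* and *vex*. *DIP-iota*, an immunoglobulin-domain partner of the Dpr proteins, had 169 and 160.2 normalized counts at ZT0 and 1.47 and 2.53 at ZT12. Both ZT12 libraries were at or under the floor of 3 counts, so that the ZT0 mean was higher by at least 40.2-fold (adjusted p = 0.047). This bound ran from 37.4-fold to 43.4-fold with 1 RNAi library left out. *Fili*, a leucine-rich-repeat protein of synaptic partner choice, had 146 and 210.1 at ZT0 and 10.3 and 13.9 at ZT12 (log2 fold change 3.86 ± 0.48 SE, adjusted p = 0.0016). *sdk*, an adhesion protein of synaptic layers in the eye, had 428 and 222 at ZT0 and 23.5 and 26.6 at ZT12 (log2 fold change 3.69 ± 0.64 SE, adjusted p = 0.0089). *Ret*, a receptor tyrosine kinase, had 572 and 358 at ZT0 and 44.0 and 37.9 at ZT12 (log2 fold change 3.50 ± 0.40 SE, adjusted p = 0.0011). In WT, *Fili* had 99.9 and 143 early and 58.7 and 119 late, and *Ret* had 123 and 173 and 128 and 243, so that neither pair was apart there. The interaction was 3.40 ± 0.62 (SE, adjusted p = 0.040) for *Fili* and 3.82 ± 0.53 (SE, adjusted p = 0.014) for *Ret*. *Cht6*, of the chitinase family, had 761 and 909 at ZT0 and 57.2 and 104 at ZT12, all above the 4 WT libraries (at most 37.4), with an interaction of 4.07 ± 0.70 (SE, adjusted p = 0.030).

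The other genes of this group were less even between libraries. *SoxN*, a transcription factor of neural development, had 55.1 and 347 normalized counts at ZT0 and 5.87 and 21.5 at ZT12, and its log2 fold change of 3.84 fell to 1.98 (adjusted p = 0.24) without the second ZT0 library, and was 4.63 without the first ZT0 library and 5.09 without the second ZT12 library. *CG13931* had 60.0 and 215 at ZT0 and 2.93 and 0 at ZT12 so that ZT0 was higher by at least 33.5-fold, or by at least 14.6-fold without the second ZT0 library and 52.4-fold without the first. *Rcd2* had 511 and 336 at ZT0 and 13.2 and 11.4 at ZT12 (log2 fold change 5.10 ± 1.00 SE, adjusted p = 0.017), and in WT the ZT24 library had 81.7 and the ZT02 library 1.02. *CG6983* and *CG4629* were 12.3-fold and 10.1-fold higher at ZT0, and *vex* was 9.84-fold higher. The log2 fold change of *CG4629* moved from 3.31 to 3.94 without the second ZT12 library. With each RNAi library left out in turn, *sNPF*, *Fili*, *Ret*, *Cht6* and *CG4629* kept their calls. *CG6983* lost its call without the second ZT12 library (adjusted p = 0.066), *vex* without either ZT12 library (0.053 and 0.071), and *CG13931* without the second library of either time (0.13 and 0.071). *SoxN* was kept without the first ZT0 library only, and *Rcd2* and *sdk* without the second ZT0 library only (adjusted p up to 0.17 and 0.091). *DIP-iota* was lost whichever RNAi library was left out (adjusted p from 0.11 to 0.30).

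The 12 genes with the largest fold changes toward ZT12 were *CG31675*, *Nmdmc*, *GABA-B-R3*, *Dh31*, *nvy*, *CG7272*, *MFS3*, *JhI-21*, *Vha36-3*, *CG8852*, *Sidpn* and *CG12290*. *Nmdmc* (FBgn0010222, chromosome 3R from 9042508 to 9050555), a mitochondrial enzyme of folate metabolism, had 105 and 61.5 normalized counts at ZT0 and 4941 and 5144 at ZT12 in *Atx2* RNAi, 60.5-fold more, with a log2 fold change of -5.92 ± 1.03 (SE, adjusted p = 0.0090). Its WT libraries did not follow the early and late pairs, with 687 at ZT24, 2427 at ZT02, 736 at ZT12 and 48.8 at ZT14, and the interaction was -7.90 ± 1.33 (SE, adjusted p = 0.030). *JhI-21*, an amino acid transporter, had 162 and 119 at ZT0 and 1958 and 2129 at ZT12 (log2 fold change -3.87 ± 0.65 SE, adjusted p = 0.0073), and in WT it was also uneven within pairs, at 536 and 2201 early and 1668 and 550.0 late. *nvy*, a corepressor gene, had 59.2 and 44.8 at ZT0 and 876 and 1254 at ZT12 (log2 fold change -4.36 ± 0.68 SE, adjusted p = 0.0056), and 174 at ZT24 against 1149 at ZT02. For these 3 genes the WT libraries of one pair lay far apart, so that the WT mean describes neither.

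*CG31675* had 1.64 and 0 normalized counts at ZT0, at or under the floor of 3 counts, and 434 and 344 at ZT12. The ZT12 mean was thus higher by at least 177-fold (adjusted p = 0.0070), a bound that ran from 157-fold to 202-fold with 1 RNAi library left out. *GABA-B-R3*, a metabotropic GABA receptor, had 8.22 and 91.0 at ZT0 and 1148 and 1883 at ZT12 (log2 fold change -4.89 ± 0.85 SE, adjusted p = 0.0088). The value was -4.04 without the first ZT0 library and -7.49 without the second. Both genes were present in all 4 WT libraries, the first between 65.8 and 636 and the second between 236 and 1634. *MFS3*, a transporter of the major facilitator family, had 110.2 and 117 at ZT0 and 2248 and 1975 at ZT12 (log2 fold change -4.21 ± 0.27 SE, adjusted p = 5.8e-05). WT *MFS3* had 785 and 1020.5 early and 2785 and 1937 late (log2 fold change -1.39 ± 0.24 SE, adjusted p = 0.011), the same direction by a smaller amount, with an interaction of -2.83 ± 0.34 (SE, adjusted p = 0.0055). *Sidpn*, of the family of bHLH repressors, had 103 and 133 at ZT0 and 1553 and 1646 at ZT12 (log2 fold change -3.76 ± 0.32 SE, adjusted p = 0.00026) with an interaction of -2.88 ± 0.41 (SE, adjusted p = 0.015). *CG7272* and *CG12290* were late genes in both genotypes. *CG7272* had 58.4 and 39.1 at ZT0 and 889 and 1097 at ZT12, against 78.0 and 54.1 and 1102 and 521 in WT. *CG12290* had 422 and 261 at ZT0 and 3981 and 5089 at ZT12, against 171 and 189.8 and 4340.4 and 6419 in WT. Their log2 fold changes in *Atx2* RNAi were -4.36 ± 0.39 (SE, adjusted p = 0.00041) and -3.73 ± 0.31 (SE, adjusted p = 0.00026). *Vha36-3*, a subunit of the vacuolar proton pump, and *CG8852* were 14-fold and 14.1-fold higher at ZT12, and the log2 fold change of *Vha36-3* moved from -3.79 to -3.03 without the second ZT12 library. The calls of *Dh31*, *CG7272*, *MFS3*, *Sidpn* and *CG12290* held with each RNAi library left out. Without the second ZT0 library the adjusted p was 0.071 for *CG31675*, 0.059 for *nvy* and 0.076 for *JhI-21*. Without the second ZT12 library it was 0.054 for *GABA-B-R3* and 0.054 for *Vha36-3*. *Nmdmc* lost its call without either ZT0 library (adjusted p = 0.053 and 0.091), and *CG8852* was kept without the first ZT12 library only (adjusted p up to 0.064).

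**Figure D3:**
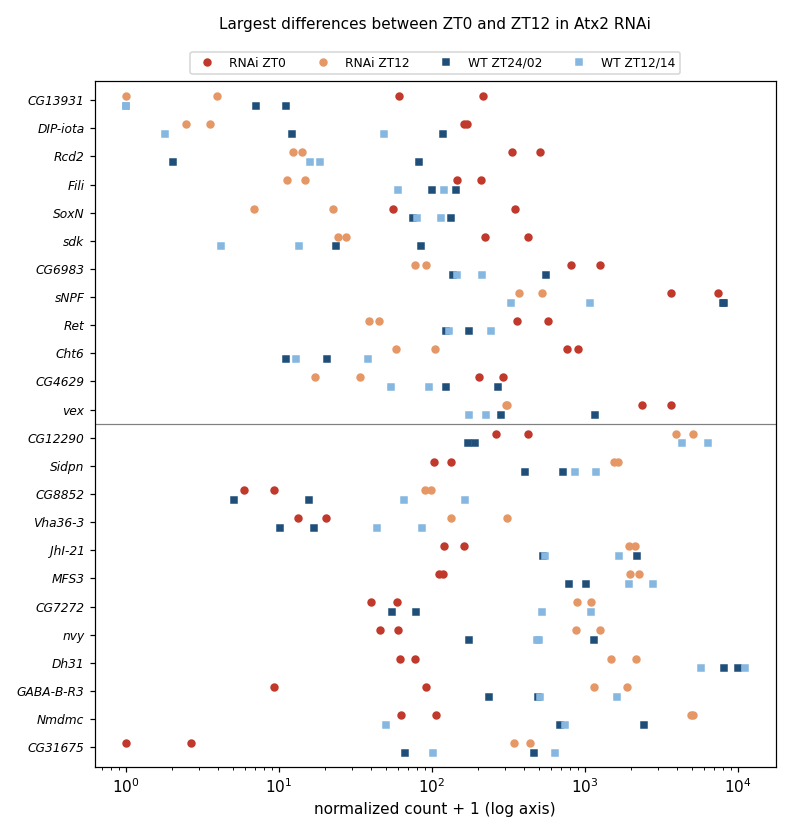
Normalized counts plus 1 (log axis) in each library for the 12 genes with the largest fold change toward ZT0 (upper part) and the 12 toward ZT12 (lower part) in *Atx2* RNAi. Circles are *Atx2* RNAi libraries (red ZT0, orange ZT12) and squares are wild type (WT, dark blue ZT24 and ZT02, light blue ZT12 and ZT14). The red and orange circles of each gene are apart by rule. The WT squares of *Cht6* lie below and those of *Dh31* above all 4 RNAi circles.

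The early secretory pathway brings new proteins through the endoplasmic reticulum and Golgi, and CREBA is known to activate its genes in secretory tissues. Of 48 members tested, 9 were called in *Atx2* RNAi, all higher at ZT12, against 1.64% of all genes. They were *Sec61beta* and *Sec61gamma* of the translocon, *TRAM* and *SsRbeta* beside it, *Sec13* of the COPII coat, *beta'COP* of the COPI coat, the cargo receptor *eca* and the chaperones *Hsc70-3* and *Gp93*. At an unadjusted p under 0.05, 29 members were higher at ZT12 and 0 at ZT0, where 6.79% of all genes were higher at ZT12. The median log2 fold change of the list was -0.55, against -0.01 for all genes, and 43 of 48 values were negative, against 4403 of all 8643. *TRAM* had 428 and 418 normalized counts at ZT0 and 1171 and 1219 at ZT12 (log2 fold change -1.50 ± 0.21 SE, adjusted p = 0.0035). *Hsc70-3*, the BiP chaperone, had 5748 and 5733 at ZT0 and 11254 and 14008 at ZT12 (log2 fold change -1.14 ± 0.24 SE, adjusted p = 0.025). *Gp93*, the GRP94 chaperone, had 623 and 811 at ZT0 and 1564 and 1617 at ZT12 (log2 fold change -1.15 ± 0.22 SE, adjusted p = 0.014). The other 6 had log2 fold changes from -1.26 (*beta'COP*) to -0.96 (*Sec13*).

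In WT the same 9 genes had small positive values, from 0.08 to 0.54 on the log2 scale, and none was called. The list as a whole had a median of 0.16 in WT, with 1 member called, *CrebA*. The interaction was called for *TRAM* (-2.04 ± 0.30 SE, adjusted p = 0.016), *Gp93* (-1.67 ± 0.31 SE, adjusted p = 0.040) and *CrebA* (-1.94 ± 0.29 SE, adjusted p = 0.019). Of 17 alternative fits, it was lost in 5 for *TRAM*, in 8 for *Gp93* and in 6 for *CrebA*. *CrebA* itself (FBgn0004396, chromosome 3L from 15535395 to 15553214) had 2144 and 1779 normalized counts at ZT0 and 3193 and 3032 at ZT12 in *Atx2* RNAi. The groups did not overlap, which was also true of 49.6% of all tested genes. The log2 fold change of -0.67 ± 0.21 (SE, adjusted p = 0.12) did not pass the test, nor did it in 17 of 19 alternative fits. It passed only in fits of the 4 RNAi libraries alone, at an adjusted p of 0.028 with edgeR and 0.0019 with DESeq2. Those fits called 748 and 824 genes in place of 354, and the DESeq2 one was chosen after the data were seen. In WT, *CrebA* was higher early (4905 and 4402) than late (2144 and 1716). Only *TRAM* of the 9 genes kept its call with each RNAi library left out. With any 1 RNAi library left out, 1 member was called at an adjusted p under 0.05 and 14 to 20 were higher at ZT12 at an unadjusted p, and the median of the list ran from -0.68 to -0.48. The list was chosen with earlier results on *CrebA* in these data known.

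**Figure D4:**
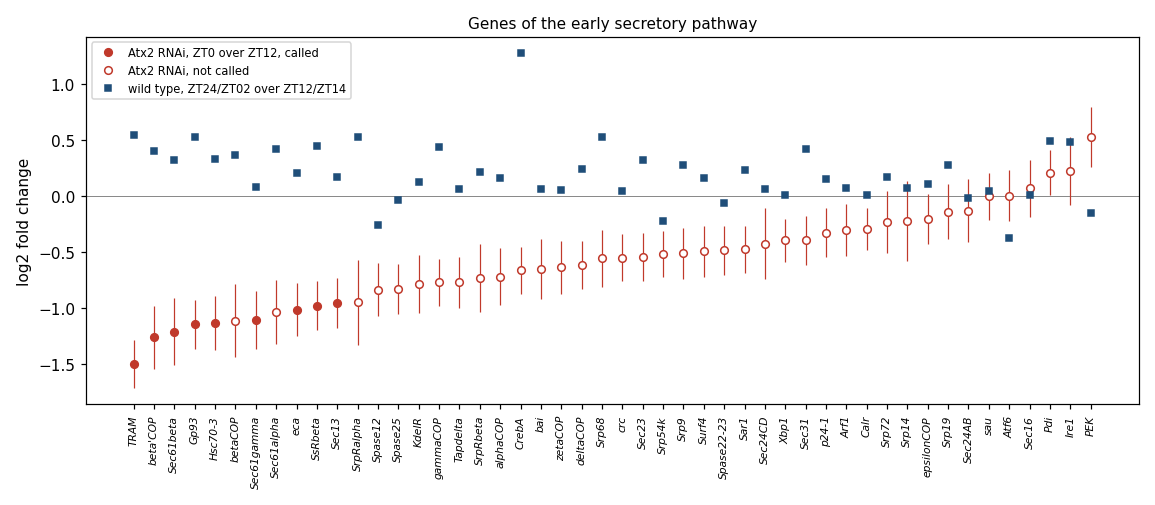
Log2 fold change between the times for 48 genes of the early secretory pathway. Circles are *Atx2* RNAi (ZT0 over ZT12, bars are standard errors), filled where called, and squares are wild type (ZT24 and ZT02 over ZT12 and ZT14). Of the circles, 43 lie below 0 and the 9 called ones lie between -1.50 and -0.96, while 41 squares lie above 0.

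Of 25 genes of the ATX2 complex and mRNA control, *tyf* and *Thor* were higher at ZT12, against 1.64% of all genes. *tyf* (FBgn0026083, chromosome X from 4117020 to 4130016), the partner of ATX2 in *per* translation, had 1576 and 1889 normalized counts at ZT0 and 5119.9 and 6821 at ZT12 (log2 fold change -1.78 ± 0.42 SE, adjusted p = 0.039). WT *tyf* was uneven within both pairs, with 2942 and 7901 early and 6925 and 3794 late that overlapped. Its call was lost whichever RNAi library was left out (adjusted p from 0.098 to 0.26). *Thor*, the translation inhibitor 4E-BP, had 484 and 468 at ZT0 and 1522 and 1412 at ZT12 (log2 fold change -1.62 ± 0.24 SE, adjusted p = 0.0041), with 1212 and 1096 and 1049 and 676 in WT, and the interaction was -2.04 ± 0.33 (SE, adjusted p = 0.026). The *Thor* call held with each RNAi library left out. *crc*, the fly ATF4, which is known to activate *Thor*, had 2143 and 1734 at ZT0 and 2995 and 2693 at ZT12 and did not pass the test (adjusted p = 0.23). Among 21 heat shock and chaperone genes 1 was called, where 4.1% of all genes were. This was *Hsc70-4*, with 3657 and 3448 at ZT0 and 6301 and 5896 at ZT12 (log2 fold change -0.78 ± 0.19 SE, adjusted p = 0.043, adjusted p from 0.21 to 0.38 with 1 RNAi library left out).

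Mitochondria and sugar metabolism supply the ATP of these active neurons. Over all 8643 tested genes, 4239 log2 fold changes were positive. Of 68 respiratory chain genes tested, 65 had a positive value toward ZT0 and the median log2 fold change was 0.53. In edgeR, 0 passed the threshold, with 30 higher at ZT0 at an unadjusted p under 0.05 (8.37% of all genes) and a lowest adjusted p of 0.051. With 1 RNAi library left out the median was 0.43 to 0.67 and 7 to 22 genes were higher at ZT0 at an unadjusted p under 0.05, and under scaling by library size only it was 0.43 with 7 genes at an unadjusted p under 0.05. Of 73 mitochondrial ribosomal protein genes, 62 were positive, with a median of 0.35, and *mRpL55* was called higher at ZT0 (2.45% of all genes). It had 255 and 228 normalized counts at ZT0 and 89.5 and 116 at ZT12 (log2 fold change 1.23 ± 0.28 SE, adjusted p = 0.034). Of 87 cytosolic ribosomal protein genes, 73 were negative although 0 were called, 1 had an unadjusted p under 0.05, and the median was -0.13. Of 12 glycolysis genes, *Pfk*, which encodes phosphofructokinase, was called higher at ZT0 (2.45% of all genes), with 1636 and 1491 at ZT0 and 933 and 883 at ZT12 (log2 fold change 0.78 ± 0.19 SE, adjusted p = 0.043), and it was higher early in WT too (2703 and 2702 against 1275 and 1327). The calls of *mRpL55* and *Pfk* were lost whichever RNAi library was left out (adjusted p from 0.13 to 0.28 and from 0.16 to 0.36). *Gpdh1*, which passes reducing equivalents from the cytosol and was picked once its values had been seen, had 737 and 749 at ZT0 and 292 and 284 at ZT12 (log2 fold change 1.37 ± 0.22 SE, adjusted p = 0.0064), and lost its call without either ZT12 library (adjusted p = 0.066 and 0.089).

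Of 14 genes tested from a list of glutathione, redox and detoxification, 2 were higher at ZT0, against 2.45% of all genes. One of the 2, *Gs1*, is not an enzyme of glutathione synthesis. *Gclc* (FBgn0040319, chromosome X from 8102181 to 8116147), the catalytic subunit of the enzyme that limits glutathione synthesis, had 2464 and 1612 normalized counts at ZT0 and 245 and 267 at ZT12, 7.96-fold more at ZT0, with log2 fold change 2.99 ± 0.29 (SE, adjusted p = 0.00053). The WT libraries had 782 and 504 early and 361 and 402 late, a smaller difference in the same direction that was not called, and the interaction was 2.24 ± 0.39 (SE, adjusted p = 0.030). *Gs1*, a glutamine synthetase, had 2199.7 and 1668 at ZT0 and 735 and 762 at ZT12 (log2 fold change 1.37 ± 0.23 SE, adjusted p = 0.0081). *Gclc* kept its call with each RNAi library left out, and *Gs1* kept it without the second ZT0 library only (adjusted p from 0.019 to 0.097). No member of the proteasome (36 tested) or autophagy (19 tested) lists was called by edgeR, with 2 and 1 at an unadjusted p under 0.05.

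**Figure D5:**
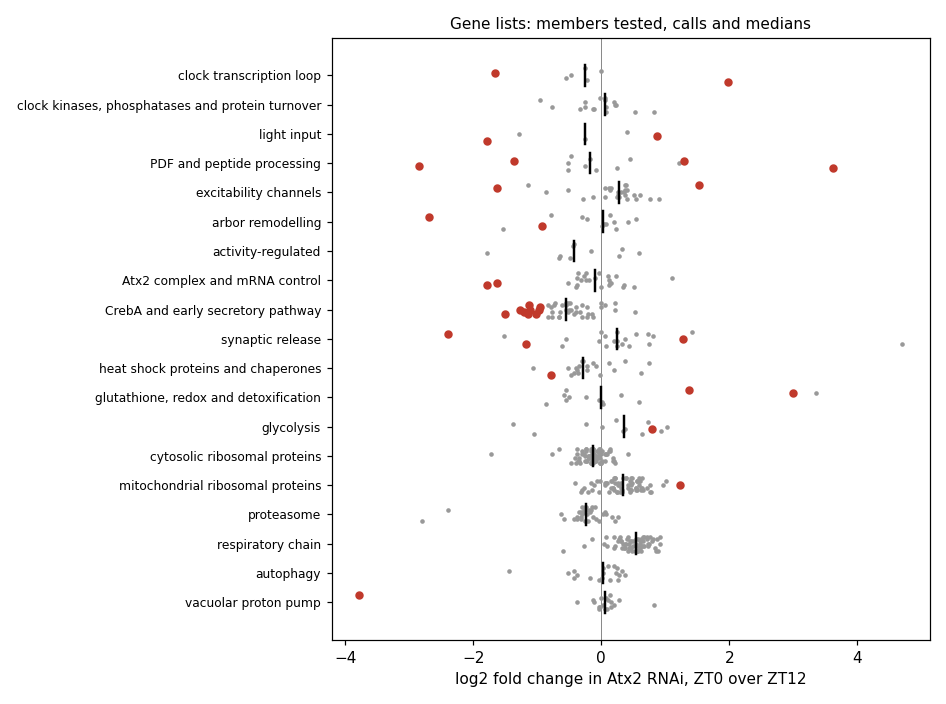
Log2 fold change between ZT0 and ZT12 in *Atx2* RNAi for the tested members of 19 gene lists. Points are genes, red where called, and black bars are list medians. The early secretory pathway has its 9 calls and its median (-0.55) below 0, the respiratory chain has its median at 0.53 with no call, and the median of the cytosolic ribosomal proteins is -0.13.

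The same genes can be set beside the *tyf(e)* mutant, whose libraries were collected at ZT04 and ZT16, so that the times differ and the sizes are not compared. In a fit of all 14 libraries, 261 of 9695 genes (2.69%) were called in *Atx2* RNAi and 41 (0.423%) in *tyf(e)*. Both lists held 14 genes, 8 with the same direction and 6 with opposite directions, which was 5.36% of the first list and 34.1% of the second. *Clk* had 1846 and 1251 normalized counts at ZT04 and 325 and 163 at ZT16 in *tyf(e)* (log2 fold change 2.67 ± 0.47 SE, adjusted p = 0.024), and *Pura* had 76.4 and 27.7 and 479 and 374 (log2 fold change -3.03 ± 0.44 SE, adjusted p = 0.0066). *Dyrk2*, *Gpdh1* and *CG12290* were also called in the direction seen in *Atx2* RNAi, with log2 fold changes of 3.45, 1.47 and -2.28 in *tyf(e)*. Of the 4 genes called against WT in *Atx2* RNAi, *meng*, *Nplp1* and *CG34325* had the WT direction in *tyf(e)*, and *pre-mod(mdg4)-AA* had a log2 value of 0.46 (adjusted p = 0.95). *meng* had 1833 and 4578 at ZT04 and 308 and 503 at ZT16 (log2 fold change 2.98 ± 0.49 SE, adjusted p = 0.019). *Nplp1* had 6082 and 6431 and 1030.5 and 893 (log2 fold change 2.70 ± 0.29 SE, adjusted p = 0.00042). *CG34325* had 85.1 and 121 and 3.41 and 7.15 (log2 fold change 4.26 ± 0.53 SE, adjusted p = 0.0016). *Pdp1*, which overlapped between the times in *Atx2* RNAi, was called higher at ZT16 in *tyf(e)* (-1.83, adjusted p = 0.020), whereas *vri* had -0.99 (adjusted p = 0.26). *sNPF* ran opposite to *Atx2* RNAi, with 3356 and 1422 at ZT04 and 9202 and 11428 at ZT16. Its log2 fold change was -2.11 ± 0.96 (SE, adjusted p = 0.43). *cry* also had the opposite sign (1.13, adjusted p = 0.39) and *Pdfr* the same sign (-0.64, adjusted p = 0.66), and none of these was called in *tyf(e)*. The single WT libraries of ZT04 and ZT16 had 1145 and 6051 for *sNPF*, the direction of *tyf(e)*, and 2721 and 3154 for *cry*. The difference between *Atx2* RNAi and *tyf(e)* in these time effects was not tested.

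Markers of other cells were followed through the 4 RNAi libraries as summed TPM. The fat body list of 6 genes was at 11.6 to 14 TPM at ZT0 and at 29.8 and 110 TPM at ZT12, and *Yp1* and *Yp2* were called higher at ZT12, most of all in the first ZT12 library, where *Yp1* was at 44.2 TPM. *Fbp1* and *Lsp2* of that list were at 1.25 TPM or less, and *apolpp*, its most abundant gene at ZT0, was at 7.52 to 9.11 TPM in the 4 RNAi libraries and was not called (adjusted p = 0.95). Of 9 glial genes, summed at 42.2 to 52.5 TPM at ZT0 and 38.4 to 59.2 TPM at ZT12, *Indy* was called higher at ZT12, and the defining markers *repo* and *alrm* were at 0.703 TPM or less in every RNAi library. *Gs2*, a glial glutamine synthetase of that list, was at 15.9 and 13.7 TPM at ZT0 and at 3.01 and 7.46 TPM at ZT12 (not called, adjusted p = 0.074), and *Eaat1* and *nrv2* also had positive values toward ZT0 that were not called. In the WT libraries the glial sum was higher, at 297 and 260 TPM early and 329 and 487 TPM late. Most of it was *Indy*, at 275 and 231 TPM early and 305 and 456 TPM late. The hemocyte sum was lower in WT, at 45.6 to 62.6 TPM. In the RNAi libraries, photoreceptor genes were summed at 5.50 to 6.65 TPM and muscle genes at 1.72 to 7.14 TPM. For hemocytes the sum was 74.3 to 104 TPM, nearly all of it *Pxn*, with *Hml*, *NimC1* and *eater* at 0.623 TPM or less. *Yp1*, *Yp2* and *Indy* moved in the direction of the ZT12 genes and *Gs2* had values in the direction of the ZT0 genes, and the part of fat body and glia in those results was not tested. The genes called higher at ZT12 numbered 58 in place of 142 without the first ZT12 library, the one with the most yolk protein RNA, and 35 without the second, and those higher at ZT0 numbered 54 and 45 in place of 212. Each of these fits has a single ZT12 library. In sorted bulk samples, fewer cells of a type and less RNA per cell cannot be told apart.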

How the data were processed

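The authors sorted GFP-labelled LNvs, amplified their RNA, quantified single-end reads with kallisto against FlyBase transcripts and tested with DESeq2. They deposited, for each library, estimated counts and TPM per transcript; kallisto divides reads among overlapping transcripts, so that counts of single transcripts are less certain than gene sums. Here the deposited estimated counts were summed per gene with the Ensembl release 115 annotation (30191 of 30438 transcripts matched, and the other 247 held 0.2343% of counts) and rounded to whole numbers. Tests used the edgeR (4.0.16, R 4.3.3) quasi-likelihood F-test with TMM scaling, filterByExpr and Benjamini-Hochberg adjustment at 0.05, on 8 libraries in 4 groups, which share 1 estimate of spread. Normalized counts are counts scaled to the TMM library size. The floor of 3 counts equals 1.92 to 4.40 normalized counts in the RNAi libraries. The floor covers counting error only.

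The gene lists, the members and the rule for named genes were chosen with earlier results of these data known. Named were all clock loop genes with *Atx2*, *tyf*, *CrebA* and *Pdf*, called list members (at most 4 of a list matched by symbol pattern), the 12 largest changes in each direction among called genes with a mean of at least 50 normalized counts, and genes opposite in WT with the interaction called. *Pde11*, *Ac13E*, *Dh31-R*, *mAChR-B*, *Oamb*, *Rgk1*, *Tbh*, *Gpdh1*, *chinmo*, *br*, *Dyrk2*, *crc*, *Hr38* and *CG14186* were picked once their values had been seen. Alternatives were other scalings, other filters, DESeq2 1.42.0, other library sets, a replicate block, an offset for transcript length, thinning and leaving out each library. On simulated counts for this comparison (8269 genes, 200 changed) the test recovered 25% of 2-fold and 90% of 4-fold changes, and 9.45% of its 127 calls were false. No motif search was run, and no sequences were used here.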

Additional observations from a re-analysis of the deposited data

Results flagged for a closer look

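For 24 of the named genes, the difference between early and late libraries was not the same in *Atx2* RNAi and WT by the test of the interaction itself, and these are given here as the log2 time difference in *Atx2* RNAi minus that in WT (edgeR, Benjamini-Hochberg adjusted). The groups were 2 libraries each, and the 2 WT libraries of a pair were collected at different times. Values above 0 were found for *vri* (4.58, adjusted p = 0.0021), *Cht6* (4.07, 0.030), *Ret* (3.82, 0.014), *Fili* (3.40, 0.040), *Pura* (2.52, 0.040), *Pdp1* (2.42, 0.016) and *Gclc* (2.24, 0.030). For *vri*, *Pdp1* and *Pura* this was a smaller late excess in *Atx2* RNAi than in WT, and for the other 4 it was an early excess that WT did not have or had at a smaller size.

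Values below 0 stand for a smaller early or a larger late excess in *Atx2* RNAi than in WT, or for an early excess in WT and a late one in *Atx2* RNAi. Among peptide and secretory genes they were found for *Dh31* (-4.85, adjusted p = 0.0010), *Nplp1* (-3.24, 0.00093), *TRAM* (-2.04, 0.016), *CrebA* (-1.94, 0.019) and *Gp93* (-1.67, 0.040). They were found among regulators for *cry* (-3.14, 0.036), *nvy* (-4.78, 0.040), *Sidpn* (-2.88, 0.015), *Hr38* (-2.70, 0.021), *Dyrk2* (-2.36, 0.040) and *Thor* (-2.04, 0.026). The other genes were *meng* (-6.14, 0.0020), *CG34325* (-7.07, 0.00093), *MFS3* (-2.83, 0.0055), *Nmdmc* (-7.90, 0.030), *CG14186* (-1.84, 0.019) and *pre-mod(mdg4)-AA* (-11.30, 0.00093). The last value rests on 2 late WT libraries with a count of 0, depends on the prior count of the fit and is no bound. All but *vri*, *Dh31*, *MFS3*, *CG34325*, *meng* and *Nplp1* lost the call in at least 1 alternative fit.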

How the results depend on the processing

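Of the log2 fold changes of named genes in *Atx2* RNAi, 1309 recomputed values kept their direction and side of the threshold, 186 lost the call, 5 gained it and 10 changed sign, all of the last in *Pdp1* and *Pdf*, which were not called. The number of genes called in *Atx2* RNAi (354, with 212 higher at ZT0 and 142 at ZT12) was 721, 418 and 303 with no filter on low counts, and 205 in place of 108 were then over 4-fold. It was 748, 401 and 347 in a fit of the 4 RNAi libraries alone, and 824, 480 and 344 with DESeq2 on those 4, an alternative chosen after the data were seen. DESeq2 on 8 libraries called 527, with 222 higher at ZT12, and scaling by library size called 118 higher at ZT0. With 1 library of any group left out, the counts were 80 to 488 in all, 45 to 270 higher at ZT0, 33 to 218 higher at ZT12 and 61 to 125 over 4-fold. The WT count (140) was 382 without a filter, 267 with DESeq2, 89 in its own 4 libraries and 91 to 182 with 1 library left out. The interaction count (64) was 397 without a filter, 229 with DESeq2, 111 in the fit of all 14 libraries, 23 with library size scaling and 9 to 190 with 1 library left out, and of these 285, 157, 20 and 7 to 131 were also called in *Atx2* RNAi without a filter, with DESeq2, with library size scaling and with 1 library left out. Genes called in both genotypes numbered 154 in the same and 33 in opposite directions without a filter, 113 and 9 with DESeq2, 12 in opposite directions with DESeq2 on 4 libraries, and 21 to 99 and 2 to 12 with 1 library left out. The *tyf(e)* count (41) was 143 without a filter, 197 with DESeq2 and 4 to 61 with 1 library left out.

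Changes of sign were found in values that were not called with all libraries. *Pdp1* in *Atx2* RNAi had a log2 fold change of 0.039 with no filter, 0.0052 with DESeq2, 0.018 with 14 libraries, 0.0068 with DESeq2 on 4 libraries and -0.27 to 0.23 with 1 library left out. *Dh31* in WT had -0.041 with library size scaling and -0.30 to 0.67 with 1 library left out. With 1 library left out, *Pdf* in *Atx2* RNAi ran from -0.26 to 0.19, the interaction of *sNPF* from -0.98 to 0.72 and that of *Pdfr* from -0.67 to 0.83, and in WT *nvy* ran from -1.51, which was past the threshold (adjusted p = 0.032, without the ZT02 library), to 1.205, *Ret* from -0.71 to 0.20 and *Cht6* from -1.35 to 0.28. The cause of the other changes was not tested.

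The labels number the libraries 1 and 2 in each group. Deviations from the group means of libraries with the same number had a Pearson r of 0.01 over 8643 genes, so the numbers were not taken as pairs. With the replicate number as a block, 228 genes were called in *Atx2* RNAi (141 higher at ZT0 and 87 at ZT12), 15 for the interaction, 13 for both, and 21 in *tyf(e)*.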

Other observations

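Of 10 genes that are induced by neuronal activity or belong to that response, 0 were called between ZT0 and ZT12 in *Atx2* RNAi by edgeR, with 4 at an unadjusted p under 0.05, all lower at ZT0 (6.79% of all genes), and a median log2 fold change of -0.43. In WT, *Hr38*, *sr* and *CG14186* were called higher early, against 0.983% of all genes. *Hr38*, a nuclear receptor gene used as a marker of recent activity in the fly brain, had 129 and 186 normalized counts at ZT0 and 235 and 267 at ZT12 in *Atx2* RNAi (log2 fold change -0.67 ± 0.29 SE, adjusted p = 0.31). In WT it had 256 and 175 early and 55.5 and 48.8 late (log2 fold change 2.04 ± 0.31 SE, adjusted p = 0.0059), so that the late WT libraries were the lowest of the 8. *CG14186* had 965 and 1119 at ZT0 and 1588 and 1658 at ZT12 in *Atx2* RNAi, and 1325 and 1372 early and 541 and 632 late in WT (log2 fold change 1.202 ± 0.20 SE, adjusted p = 0.0093). The interaction was -2.70 for *Hr38* and -1.84 for *CG14186* (adjusted p = 0.021 and 0.019), and each was lost in 6 of 17 alternative fits. *Hr38* and *CG14186* were picked once their values had been seen.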
